A study of Homo sapiens with 6 samples.

Results

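The genes described here are 10 components of the Notch pathway, the receptors NOTCH1, NOTCH2 and NOTCH3, the ligands JAG1, JAG2 and DLL1, and the target genes HES1, HEY1, HEY2 and HEYL. They are 10 of the 19775 genes that the arrays read, and were taken as every probe set annotated to 1 of these symbols alone, 27 probe sets in all. The set was selected on the measured rise of HEY1 with the compound Cmp302 in the Twist line, so compound changes in that line are given as a description, with no test. The cells were HMLE, human mammary epithelial cells made immortal, kept in medium with serum, insulin, hydrocortisone and EGF. A control line carried the retrovirus pBabe-shGFP and a Twist line the retrovirus pBabe-Twist, whose insert encodes a transcription factor known to turn epithelial cells mesenchymal. The labels do not say whether each line was a clone or a pool. Each line was given DMSO, or Cmp302 at what the titles call 5 µM and 10 µM, for 6 h per the treatment protocol, and each of the 6 groups has 1 array. The source names instead give 2 µM for both levels, at 4 h and 8 h, so the groups are named here by their titles, and dose and time cannot be told apart.

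Notch receptors are cut after binding a ligand on a neighbouring cell, and the freed intracellular part joins the DNA-binding protein RBPJ to switch on target genes. Among the best known targets are the HES and HEY genes, which encode transcriptional repressors. In the mammary gland the pathway is known for its part in the choice between luminal and basal cell fates.

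HES1 and HEY1 were the members that stood apart with Cmp302 in the Twist line. HEY1 was 13.5-fold and 17.3-fold above the DMSO array at 5 µM and 10 µM, and HES1 at least 24.7-fold and 25.8-fold. In the control line both lay within 0.37 log2 units of DMSO on these brightest probe sets. The ligands JAG2 and DLL1, and NRARP, another Notch target, were high in the control line and at or near the lower limit of measurement on all 3 Twist-line arrays, with the compound as without it.

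Promoter sequences of 4 target genes are shown here, because genes of the same pathway moved differently on the same arrays. HES1 was higher with Cmp302 in the Twist line, HEY2 was not measurable, HEYL stayed near its DMSO value and NRARP stayed under the limit. Each is the 250 bases before the RefSeq start in build GRCh38.p14, 5′ to 3′ on the gene's own strand, with capitals marking TGGGAA or its reverse complement TTCCCA, the core letters that RBPJ is known to bind. The regions are chr3:194135898-194136147 on the plus strand for HES1, chr6:125749382-125749631 on the plus strand for HEY2, chr1:39639644-39639893 on the minus strand for HEYL and chr9:137302272-137302521 on the minus strand for NRARP.
HES1: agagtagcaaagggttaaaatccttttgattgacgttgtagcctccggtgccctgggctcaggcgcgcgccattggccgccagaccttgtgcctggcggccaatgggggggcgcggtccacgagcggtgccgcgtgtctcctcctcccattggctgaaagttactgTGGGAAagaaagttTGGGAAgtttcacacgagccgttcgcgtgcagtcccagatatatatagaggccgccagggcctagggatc
HEY2: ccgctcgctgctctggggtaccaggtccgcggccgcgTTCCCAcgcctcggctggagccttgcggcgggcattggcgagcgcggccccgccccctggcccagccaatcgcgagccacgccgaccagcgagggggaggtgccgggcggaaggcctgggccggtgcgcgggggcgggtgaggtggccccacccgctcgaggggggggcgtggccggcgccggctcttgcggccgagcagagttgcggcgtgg
HEYL: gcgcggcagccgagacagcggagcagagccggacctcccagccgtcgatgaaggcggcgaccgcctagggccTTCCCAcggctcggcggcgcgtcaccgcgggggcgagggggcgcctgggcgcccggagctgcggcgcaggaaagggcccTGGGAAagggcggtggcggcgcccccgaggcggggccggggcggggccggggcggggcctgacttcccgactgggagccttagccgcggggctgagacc
NRARP: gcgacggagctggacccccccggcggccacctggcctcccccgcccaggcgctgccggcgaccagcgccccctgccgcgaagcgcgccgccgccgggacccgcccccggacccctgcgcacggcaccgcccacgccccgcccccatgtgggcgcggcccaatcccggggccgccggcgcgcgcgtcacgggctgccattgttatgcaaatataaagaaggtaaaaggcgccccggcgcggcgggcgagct

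These letters were searched on both strands of the 250 upstream bases of 35116 promoters, of which 20.8% held at least 1 match and 2.90% held 2 or more. The HES1 window held a pair, beginning 84 and 70 bases before the start and both on the gene's strand. HEYL also held a pair and HEY2 held 1 match, whereas the NRARP window held none. Of the 10 members 8 were in the promoter table, without HEY1 and DLL1, and only those 3 of the 8 had a match. The N box CACNAG, to which HES proteins are known to bind, was in 32.0% of promoters and in the windows of HES1, with 3 matches, and NOTCH3. The E box CACCTG, bound by repressors such as ZEB1, was in 17.5% of promoters and among the 8 members in that of JAG2. TGATGNAAN, the composite site of ATF4 and C/EBP factors, was in 3.13% of promoters and in 0 of the 8 members' windows. CACNAG and CACCTG cannot match at the same bases on one strand, and overlap between matches of different motifs was otherwise not counted. A match here is a run of letters, not a measured site.

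The labels were checked against known genes. TWIST1 had log2 signals of 10.48 to 10.70 on control-line arrays and 11.35 to 11.96 on Twist-line arrays. The lines differed in TWIST1 by less than 1 log2 unit under DMSO (10.70 and 11.57) and at 10 µM, and by more only at 5 µM (10.51 and 11.96). CDH1, encoding E-cadherin, had 13.03 to 13.24 against values under the floor on all 3 Twist-line arrays. Between 11646 and 11841 genes lay above the floor on each array. The floor is a log2 signal of 3.71, the median of all values, under which a signal was taken as not measured. A contrast that widens as RNA degrades, the 3′ less the middle probe set averaged over GAPDH and ACTB, was 0.28, 0.45 and 0.835 log2 units on the control-line arrays in the order DMSO, 5 µM, 10 µM. The Twist-line arrays had 0.955, 0.355 and 0.445, so the Twist DMSO array, the baseline of every compound change in that line, had the widest contrast of the 6. Of 6 endothelial markers, a cell type in which Notch genes are also active, CDH5, VWF, TEK, KDR and CLDN5 were under the floor on all arrays. PECAM1 was above it, at 3.80 to 4.05 on control-line arrays and 7.20 to 7.64 on Twist-line arrays, and the summed level of the 6 was 6.31 to 6.36 and 7.73 to 8.05. With 1 array per group a difference between 2 arrays carries no error, so precision is limited by how few arrays there are. A gene was read by its brightest probe set, and "higher" or "lower" between 2 arrays means past 2-fold, or 1 on the log2 scale, unless a test is named. In such bulk RNA a change in the share of cells expressing a gene and a change per cell cannot be told apart.

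**Figure D1:**
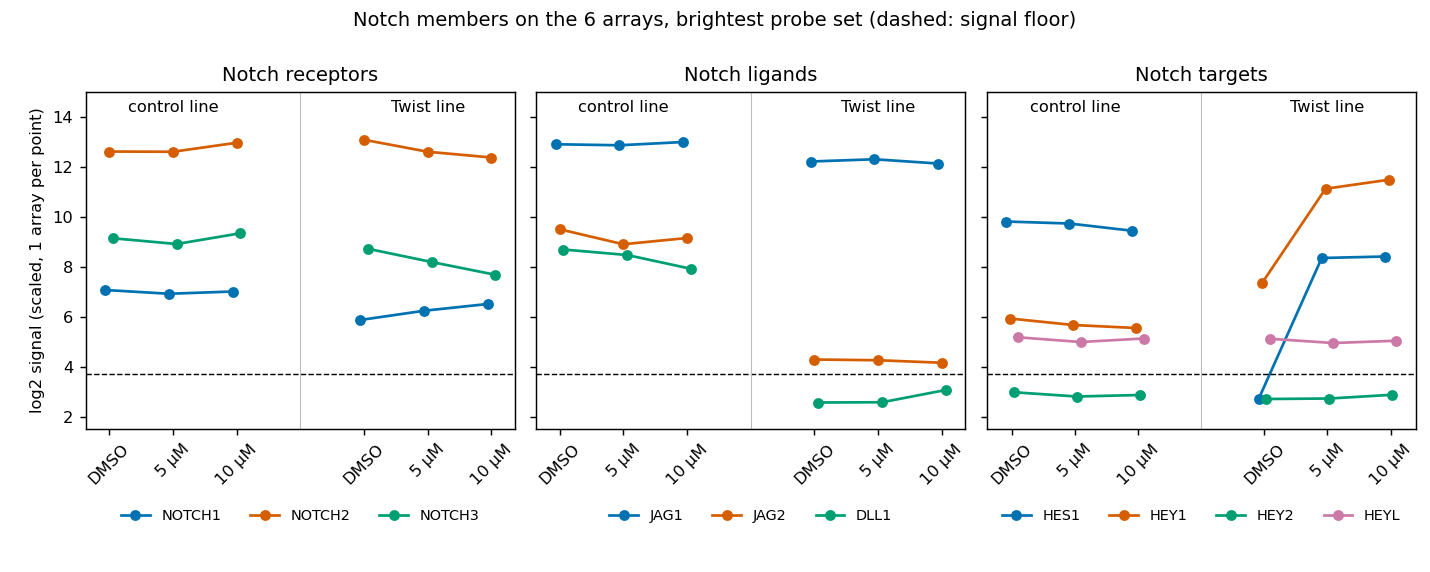
Log2 signal (vertical axis) of the 10 members on the 6 arrays (horizontal axis, DMSO, 5 µM and 10 µM of Cmp302 in the control line and in the Twist line), 1 point per array, read by the brightest probe set of each gene. The dashed line is the floor of 3.71, and HES1 passes from 2.70 to 8.40 and HEY1 from 7.36 to 11.47 between the Twist DMSO and 10 µM arrays, while JAG2 and DLL1 stay low on all Twist-line arrays.

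The receptors were measured on all 6 arrays. NOTCH1, a receptor broadly used in epithelia, had log2 signals of 7.06, 6.91 and 7.0 on the control-line arrays, in the order DMSO, 5 µM, 10 µM, and of 5.86, 6.23 and 6.50 on the Twist-line arrays. Its Twist-line signals lay below all 3 control-line signals, and the lowest was under DMSO. NOTCH2 had 12.60, 12.59 and 12.95 on the control-line arrays and 13.07, 12.59 and 12.36 on the Twist-line arrays, and the lines overlapped. NOTCH3 had 9.13, 8.90 and 9.33 on the control-line arrays and 8.71, 8.18 and 7.67 on the Twist-line arrays, where every array lay below the control line. At 10 µM NOTCH3 was 2.05-fold below its Twist DMSO value, the member lower past 2-fold, in a comparison where 8.46% of 11931 genes were. That call ended under the adjustment for RNA quality described with HES1 and HEY1, which also holds the compound level, with a log2 change of -0.78. With the median over the NOTCH3 probe sets the change was -0.52. Its other probe set was under the floor on all arrays, so that median averages the measured change with an undetected probe set and does not weigh against the call.

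The probe sets of NOTCH2 did not move together. On its brightest probe set NOTCH2 had changes of -0.48 and -0.70 log2 units at 5 µM and 10 µM in the Twist line, and the 4 single-symbol probe sets ran from -1.25 to 0.29 at 10 µM. A further probe set, annotated to NOTCH2 and to the near-identical NOTCH2NL copies and so left out by the rule, went from 9.41 under DMSO to 10.52 and 10.75. The compound change of NOTCH2 is therefore given as uncertain. For NOTCH1 the changes were 0.37 and 0.64, and its dimmer probe set gave 0.14 and 0.08.

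**Figure D2:**
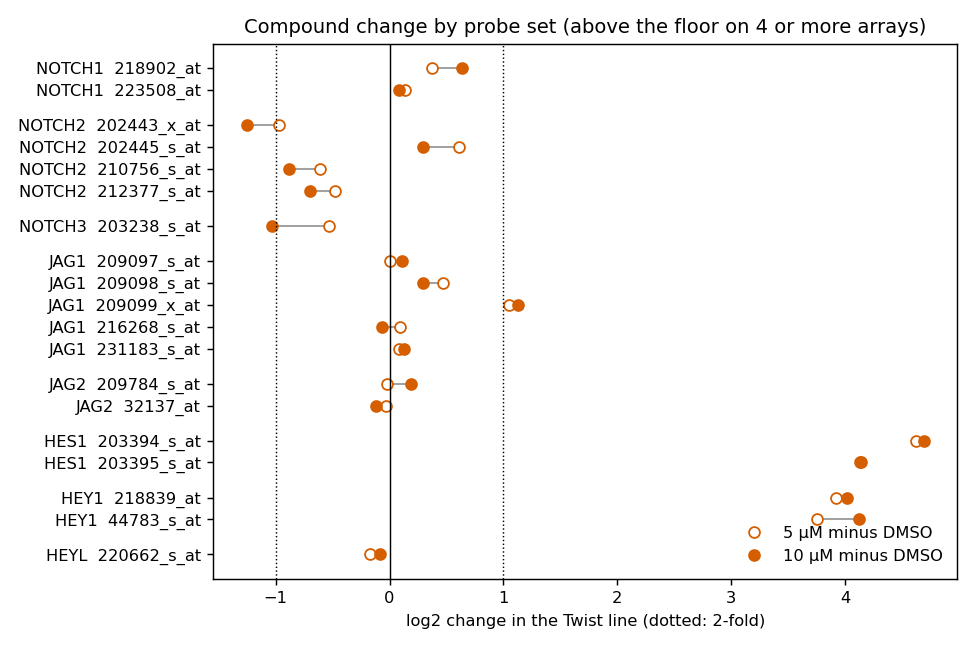
Log2 change from the Twist DMSO array (horizontal axis, open points 5 µM, filled points 10 µM) for each probe set of the members that lay above the floor on 4 or more arrays (vertical axis), with values under the floor set to it. Both probe sets of HES1 and both of HEY1 lie between 3.75 and 4.69, while those of NOTCH2 and JAG1 spread to both sides of 0.

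Of the ligands, JAG1 stayed well above the floor in the Twist line, and JAG2 and DLL1 lay at or near it. JAG1, a ligand expressed by many epithelia, had log2 signals of 12.89, 12.85 and 12.98 on the control-line arrays and 12.20, 12.29 and 12.12 in the Twist line, and the lines did not overlap. JAG2 had 9.49, 8.89 and 9.14 on the control-line arrays and 4.28, 4.25 and 4.15 on the Twist-line arrays, close above the floor. That is 37.0-fold lower under DMSO and 31.8-fold at 10 µM, with a log2 difference of -4.65 at 5 µM. DLL1 had 8.68, 8.46 and 7.91 in the control line and lay under the floor on all 3 Twist-line arrays, at least 31.2-fold lower under DMSO and at least 18.4-fold lower at 10 µM. These sizes depend on the floor. With it at the 65th percentile the log2 differences under DMSO were -2.65 for DLL1 and -3.46 for JAG2, against -4.96 and -5.21, and with the median over probe sets that of DLL1 was -2.48. The second probe set of JAG2 gave log2 differences of -6.00, -5.46 and -5.08. That of DLL1 was under the floor on every array, so the DLL1 median averages the measured difference with an undetected probe set.

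Compound changes of the ligands were small beside these line differences. In the Twist line JAG1 had log2 changes of 0.09 and -0.07, and JAG2 of -0.03 and -0.12, while DLL1 could not be measured. One of the 6 probe sets of JAG1 went past 2-fold, at 1.05 and 1.13. With the median over its probe sets, some of them near or under the floor, the changes of JAG1 were 0.74 and 0.68. The control-line changes at 5 µM and 10 µM were -0.21 and -0.76 for DLL1 and -0.60 and -0.34 for JAG2.

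HES1, a repressor and a direct Notch target in many tissues, had 9.80, 9.72 and 9.43 log2 units on the control-line arrays, 2.70 on the Twist DMSO array, and 8.34 and 8.40 on the Twist arrays at 5 µM and 10 µM. The Twist DMSO array alone was under the floor, and both treated Twist arrays were below all 3 control-line arrays. Another probe set of HES1 was above the floor throughout and read 3.85 under DMSO and 7.98 at both levels in the Twist line, against 8.54 to 8.66 in the control line. On it the changes were 4.13 and 4.14, and the remaining distance to the control line at equal treatment was -0.57 and -0.68, against -1.38 and -1.03 on the brightest. Its other probe set was under the floor on all arrays. Since HES1 was under the floor at baseline, its changes of 4.62 and 4.69 are lower bounds, which became 5.44 and 5.51 with the floor at the 35th percentile and 2.31 and 2.38 with it at the 65th.

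HEY1, a related repressor, showed another starting point. It had log2 signals of 5.92, 5.66 and 5.54 on the control-line arrays and 7.36, 11.11 and 11.47 in the Twist line, where even the DMSO array lay above the control line, by 1.44. With the compound the distance to the control line was 5.44 at 5 µM and 5.93 at 10 µM. Its other probe set gave changes of 3.92 and 4.02 in the Twist line and of -0.36 and -0.81 in the control line, and a line difference under DMSO of 0.79, which is under 2-fold. HES1 and HEY1 thus differed in opposite directions between the lines under DMSO, and both were above their DMSO value with Cmp302 in the Twist line.

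Most of the difference was present at the lower level. Between 5 µM and 10 µM HES1 moved by 0.06 and HEY1 by 0.37 log2 units, and 0 of the 8 members measured in that comparison were past 2-fold, where 0.593% of genes were higher and 0.508% lower. Matched on the RNA quality contrast, by taking off each gene's slope on it over the control-line arrays, the changes were 3.38 and 3.80 for HEY1 and 4.22 and 4.35 for HES1. On those arrays the contrast widened with the compound level, so the slope holds both, and RNA quality and compound cannot be told apart in it. On the control-line 10 µM array, where the contrast was 0.835, HES1 was at 9.43. That is 1 array of the other line, and the part of RNA quality in the Twist DMSO signal of HES1 was not tested. DDIT3 and ATF3, genes of the cellular stress response, went from 6.16 to 11.96 and from 5.55 to 11.09 between the Twist DMSO and 10 µM arrays, and their part in the HES1 and HEY1 changes was not tested.

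The other HES and HEY members gave little signal. HEYL had log2 signals of 5.17, 4.98 and 5.12 on the control-line arrays and 5.11, 4.94 and 5.03 in the Twist line, and the lines overlapped. HEY2 was under the floor on all 6 arrays with both its probe sets, so nothing can be said of it at this sensitivity. Of the 8 members with a value in the Twist line, 2 were higher at each level, HES1 and HEY1, where 4.42% of all genes were at 5 µM and 8.04% at 10 µM. At 5 µM 0 members were lower, where 5.01% of genes were. The rule used this contrast, so nothing is read from that count. The median change over the 8 was 0.03 and -0.07, beside 0.00 at both levels over all genes.

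In the control line 0 of 9 measured members were past 2-fold at either level, where 0.0585% of genes were higher and 0.0668% lower at 5 µM and 0.200% and 0.259% at 10 µM. The rule did not use this comparison, but the members were chosen with earlier results of these data known. With so few of all genes past 2-fold, a count of 0 says little of the members. A limma fit with line, level and their interaction over the 6 arrays called 0 of 12478 genes in the control-line trend at an adjusted p of 0.05, and 938, or 7.52%, at an unadjusted p of 0.05. HEY1 and HES1 are given no value from this fit, since its spread takes in their jump on the Twist arrays, the contrast used to choose the set. Of the other 7 members in the fit DLL1 had the lowest p, at -0.38 ± 0.09 log2 units per level (SE, 6 arrays, adjusted p = 0.621). A p that misses the threshold does not show that the compound had no effect.

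**Figure D3:**
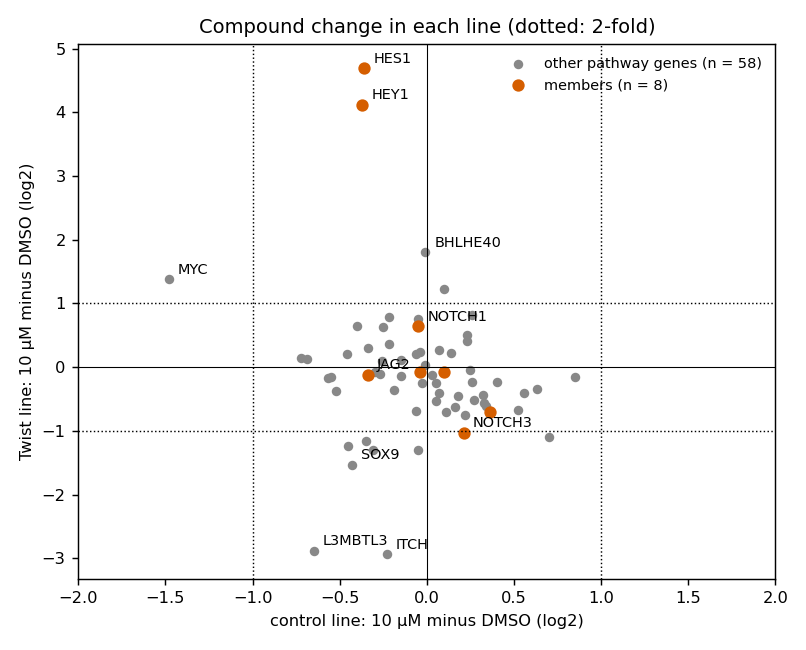
Log2 change at 10 µM from DMSO in the control line (horizontal axis) and in the Twist line (vertical axis) for the members and for the other Notch pathway genes with a value in both lines, 1 point per gene, with dotted lines at 2-fold. HES1 and HEY1 lie at 4.69 and 4.12 in the Twist line and at -0.36 and -0.37 in the control line, and the other 6 members lie between -1.03 and 0.64 in the Twist line.

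The lines were also compared over all 6 arrays, in a limma fit with treatment as a factor and 2 residual degrees of freedom, in which HEY1 was left untested because its Twist-line values chose the set. The standard errors are drawn by limma towards the spread of other genes, so they reflect only in part how far a gene's own line difference varied with treatment. No replicates enter. Of the 8 members tested 4 were lower in the Twist line and 0 higher, where 14.9% of 12478 genes were lower and 13.7% higher, and 39.1% had an unadjusted p under 0.05. JAG2 differed by -4.95 ± 0.20 log2 units (SE, 6 arrays, adjusted p = 4.8e-05) and DLL1 by -4.64 ± 0.21 (adjusted p = 6.4e-05), the latter a bound. JAG1 was lower by a smaller amount, -0.71 ± 0.17 (adjusted p = 0.0314), as was NOTCH1, -0.80 ± 0.21 (adjusted p = 0.0449). With the median over its probe sets, some of them near or under the floor, JAG1 differed by -1.70 (adjusted p = 0.00492). NOTCH3 had -0.94 ± 0.30 (adjusted p = 0.0774), HES1 -2.83 ± 1.02 (adjusted p = 0.100), HEYL -0.07 ± 0.12 (adjusted p = 0.764) and NOTCH2 -0.04 ± 0.25 (adjusted p = 0.927), none of which passed. The wide error of HES1 goes with its Twist values of under 3.71 without the compound and above 8 with it. The calls of JAG2 and DLL1 held without each treatment pair in turn. JAG1 was no longer called without the 5 µM pair (adjusted p = 0.341) or the 10 µM pair (adjusted p = 0.262), and NOTCH1 without the 5 µM pair (adjusted p = 0.196), while without the DMSO pair 7 of the 8 members were lower, in a fit that called 30.7% of all genes lower and 29.9% higher. Each of these fits has 1 residual degree of freedom, so its errors come mostly from the spread of other genes. Calls kept or lost in them therefore say little of a member's own spread.

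Under each treatment alone, 1 of 9 members, HEY1, was higher in the Twist line, where 11.9%, 12.1% and 14.8% of genes were under DMSO, 5 µM and 10 µM. The lower members numbered 4, 3 and 4, where 13.6%, 12.6% and 14.1% of genes were lower. JAG2, DLL1 and HES1 were among them each time, NOTCH1 under DMSO and NOTCH3 at 10 µM. With the median over probe sets HES1 at 5 µM and 10 µM (-0.57 and -0.68), NOTCH1 under DMSO (-0.67) and NOTCH3 at 10 µM (-0.83) were no longer past 2-fold. For NOTCH3 that median takes in a probe set under the floor on all arrays. JAG1 was past 2-fold by the median under all 3 treatments (-2.22, -1.40 and -1.48). That median takes in JAG1 probe sets near or under the floor. The JAG1 probe sets well above the floor ran from -2.56 to -0.69 under DMSO.

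The rest of the pathway was read from a list of 78 further genes, of which 72 were on the array and 64 above the floor on at least 2 arrays. In the line test 8 of the 64, or 12.5%, were higher in the Twist line and 13, or 20.3%, lower, where 13.7% and 14.9% of all genes were. The list of other HES genes, relatives of HES and Notch targets had 1 higher and 3 lower of 10. NRARP, a feedback inhibitor and direct Notch target, was lower (-5.92 log2 units, adjusted p = 2.6e-05), a bound, and HES2 (-3.15, adjusted p = 0.00015). NRARP had 9.76, 9.69 and 9.43 log2 units on the control-line arrays and 3.43, 3.61 and 3.48, all under the floor, on the Twist-line arrays. It was thus low with HES1 under DMSO, and was not measurable on the treated Twist arrays where HES1 was. SOX9, which Notch can activate in several tissues, was lower (-2.14, adjusted p = 0.0027), and HES6 was higher by 0.71 (adjusted p = 0.0102).

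**Figure D4:**
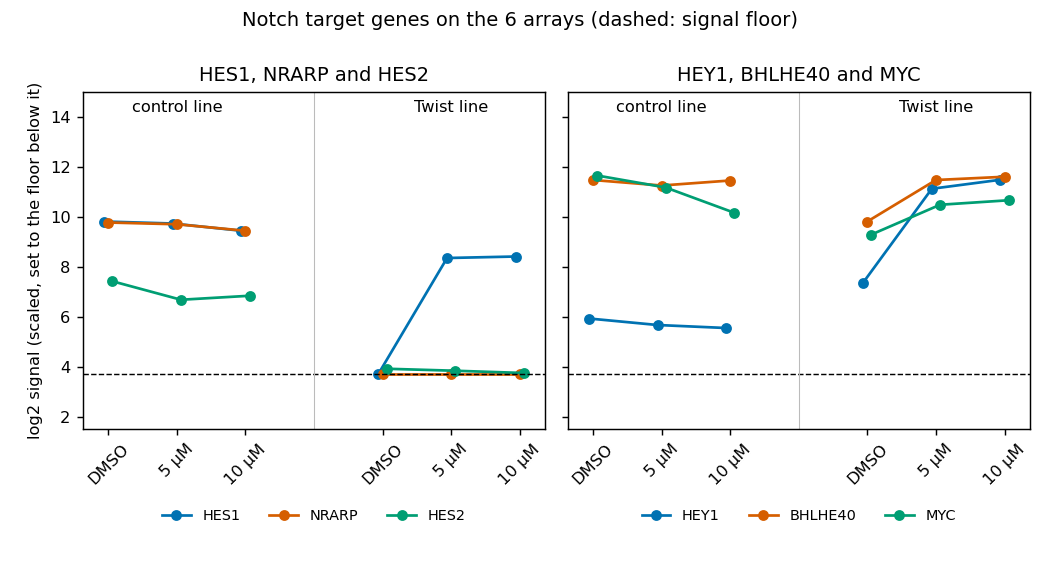
Log2 signal (vertical axis) of HES1, NRARP, HES2, HEY1, BHLHE40 and MYC on the 6 arrays (horizontal axis), 1 point per array. Values under the floor of 3.71 (dashed line) are set to it. HES1, NRARP and HES2 are at or near the floor on the Twist DMSO array, and of these HES1 alone is above 8 on the treated Twist arrays.

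In the list of other ligands and receptors, DNER, a non-canonical ligand, was higher in the Twist line by 2.61 log2 units (adjusted p = 0.00053). MFAP5, a matrix protein that can bind Notch, was lower (-3.87, adjusted p = 0.00011), a bound, and DLK2 (-1.24, adjusted p = 0.0029). NOTCH4, DLL4 and DLK1 were under the floor on all arrays. Among 13 genes of receptor maturation and cleavage, LFNG, a glycosyltransferase that tunes which ligand a receptor answers, was lower (-2.58, adjusted p = 0.00052) and the convertase gene FURIN (-2.27, adjusted p = 0.011). The gamma-secretase subunit gene APH1B was higher by 2.83 (adjusted p = 0.00091). The remaining 10 of these genes did not pass, the sheddase gene ADAM10 among them (-0.05, adjusted p = 0.915).

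Of 15 genes of ubiquitination and endocytosis, 1 was higher and 3 lower. DTX4, an E3 ligase gene that acts on Notch, was lower (-3.30, adjusted p = 5.5e-05), a bound, with WWP2 (-1.51, adjusted p = 0.00347) and DTX2 (-0.70, adjusted p = 0.0116). Its relative DTX3 was higher by 0.52 (adjusted p = 0.0218). Of 21 genes of the RBPJ complex and its cofactors, 4 were higher and 3 lower. The corepressor genes TLE2 and TLE4 were higher by 1.69 (adjusted p = 0.0008) and 1.47 (adjusted p = 0.0139), and L3MBTL3, whose product is a corepressor that binds RBPJ, was lower (-3.27, adjusted p = 0.00394). The acetyltransferase genes KAT2B (1.24, adjusted p = 0.0221) and EP300 (0.93, adjusted p = 0.0288) were also higher. The coactivator gene MAML3 (-0.74, adjusted p = 0.00517) and the deacetylase gene HDAC1 (-0.83, adjusted p = 0.0315) were lower. The values of TLE2 and MAML3 are partly bounds. TLE2 was under the floor on the control-line arrays with Cmp302, and MAML3 on the treated Twist arrays. RBPJ itself differed by 0.46 (adjusted p = 0.184).

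With the compound, 2 of the 59 list genes with a value in the Twist line were higher and 3 lower at 5 µM, or 3.39% and 5.08%, where 4.42% and 5.01% of all genes were. At 10 µM 3 were higher and 8 lower, or 5.08% and 13.6%, where 8.04% and 8.46% of all genes were, and the medians over the list were -0.15 and -0.16. All 3 of the higher genes at 10 µM were in the list of other HES genes, relatives of HES and Notch targets. BHLHE40, a stress-responsive repressor related to HES, was higher by 1.66 and 1.80 log2 units, with 9.80 under DMSO against 11.24 to 11.46 in the control line, and its relative BHLHE41 had changes of 0.93 and 1.23. MYC was higher by 1.19 and 1.38, and in the control line it had -0.47 and -1.48, the 1 pathway gene past 2-fold there. HES6 had changes of 0.37 and 0.50, and the cell cycle gene CCND1, at times a Notch target, of -0.39 and -0.71.

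Genes lower at both levels in the Twist line were ITCH, NEURL1B and L3MBTL3. L3MBTL3 had 6.84, 5.35 and 3.95 log2 units on the Twist-line arrays, changes of -1.49 and -2.88. NEURL1B, an E3 ligase gene for Notch ligands, had -1.05 and -1.30, the second a bound. ITCH, an E3 ligase gene for Notch, had -2.17 and -2.94 on its brightest probe set, but 3 others gave 1.03 to 1.47 at 10 µM, so its direction depends on the probe set. SOX9 had -1.53 at 10 µM on its brightest probe set and 0.54 on its other. The remaining genes lower at 10 µM were NCSTN (-1.24), MAML2 (-1.30), NUMBL (-1.10) and KAT2B (-1.16), all under 2-fold at 5 µM. A dimmer probe set gave -0.74 for MAML2 and 0.12 for NUMBL at 10 µM.

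The 5 genes whose pattern over the 6 arrays lay nearest to that of HEY1, by Euclidean distance of log2 signals about each gene's own mean among 12477 other genes, were TSLP, ATF3, RAB39B, IL6 and DDIT3. Their distances ran from 1.10 to 1.41 log2 units. TSLP, a cytokine gene, had 4.48 to 4.74 on control-line arrays and 7.34, 9.93 and 10.07 on Twist-line arrays, and so shared with HEY1 a raised Twist DMSO signal. IL6, another cytokine gene, and RAB39B, a small GTPase gene, were under the floor on all control-line arrays. HES1 ranked 11844 of 12477 by the same measure (distance 8.73), its control-line signals being high where those of HEY1 were low. The 6 arrays share the same 2 lines and treatments, so this likeness is a description only.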

How the data were processed

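RNA of 6 samples, 1 per group, was hybridised to Affymetrix Human Genome U133 Plus 2.0 arrays, per the labels' protocols. The deposited values are log2 signals, a unit judged from their range of 1.12 to 14.8. Per the submitters' processing notes the software was GCOS 1.2; how background, summarisation and normalization were handled is not stated in the labels. The 6 column medians lay between 3.69 and 3.74.

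Of 54675 probe sets 62 were controls and removed. Arrays were aligned on brighter probe sets by a median shift against their mean (offsets -0.03 to 0.01), and signals under the median of all values were set to that floor. A gene was read by its brightest probe set among the 41091 with 1 symbol, with symbols updated through RefSeq gene numbers, leaving aside 1801 with more than 1 symbol and 11721 unnamed. Changes are differences of log2 signals, and those against the floor are bounds. Tests used limma 3.58.1 in R 4.3.3 (eBayes with trend, Benjamini-Hochberg, 0.05) over the 12478 genes that passed the floor on 2 or more arrays. On simulated data the line test recovered 8% of differences of 1 log2 unit and 45% of those of 2. The control-line trend recovered 15% and 56% of slopes of 1 and 2 log2 units per level. In these simulations 100 of 12478 genes were changed at each step size, far fewer than the line test called in the data. The recovered shares therefore need not hold for the real fits. A gene that did not pass may still differ. All 10 members are named, as are other pathway genes called by a test or past 2-fold at both levels in a line (at most 4 per list and direction) and the 5 genes nearest to HEY1. BHLHE41, HES6, CCND1, ADAM10, RBPJ and the genes under the floor were named after their values were seen. So were SOX9, NCSTN, MAML2, NUMBL and KAT2B at 10 µM. Of the members 9 passed the filter on low signals, 7 lay above the floor on all arrays, and HEY2 passed on none. The promoters are from RefSeq. The members and lists were chosen with earlier results of these data known. Alternatives changed the scaling, floor, filter, probe set rule, coding of levels and arrays used.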

Additional observations from a re-analysis of the deposited data

Results flagged for a closer look

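With 1 array per group, the line differences in compound change below were not tested, and the Twist-line contrast is the one that led to the choice of these genes. On its brightest probe set HES1 was above DMSO at both levels in the Twist line and below it at both in the control line. The difference between the lines was 5.05 log2 units at 10 µM. HEY1 differed between the lines in the same way, by 4.49. The control-line changes of HES1 were small, at -0.07 and -0.36, and its other detected probe set gave -0.12 and 0.01. NOTCH1 also had opposite signs in the lines, with a difference of 0.70, although its control-line changes were -0.15 and -0.05. A probe set outside the comparisons, annotated to NOTCH2 and 4 NOTCH2NL genes, was above its DMSO signal by 1.34 log2 units at 10 µM in the Twist line, where the brightest single-symbol probe set of NOTCH2 had -0.70.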

How the results depend on the processing

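No called value changed sign under any alternative run, and the Twist-line changes of HEY1 ran from 3.38 to 4.14 log2 units over both levels. With probe sets of suffix _s_at or _x_at left out, which removes NOTCH2, NOTCH3, JAG1, DLL1, HEYL and the probe sets that detect HES1, 1 member was higher in the Twist line at each level and 0 lower at 10 µM. Between lines 0 were then higher and 2 lower under DMSO, 1 lower at 5 µM and 1 at 10 µM. The limma line test then called 1 member lower, where 15.7% of all genes were lower. The NOTCH3 call at 10 µM, 1 member lower, became 0 with the median over probe sets and 0 when quality-matched. That median takes in a NOTCH3 probe set under the floor on all arrays. With no filter on low signals the line test called 2 members lower, JAG2 and DLL1, where 6.29% of all genes were lower against 14.9% with the filter. Without 1 treatment pair it called 3 to 7 lower, 7 without the DMSO pair, where the share of all genes called lower also went from 14.9% to 30.7%. That share was 13.6% without the 10 µM pair and 10.2% without the 5 µM pair. HES1 was called in each of these 3 fits, although its line differences were -6.08, -1.38 and -1.03 under DMSO, 5 µM and 10 µM. The errors of these fits come mostly from other genes, so nothing is read from those HES1 calls. NOTCH1 also lost its limma call with the floor at the 35th percentile, the median over probe sets, suffix sets left out and no filter (adjusted p from 0.0521 to 0.255), and JAG1 with no filter (adjusted p = 0.0649). The control-line trend called 0 members under every alternative, those leaving out each array included, HEY1 and HES1 set aside because their spread comes from the Twist arrays. Of all genes it called 0 as well, except with no filter, at 0.0152% higher and 0.0556% lower. No paired analysis was possible because each group has 1 array, so the groups share a single replicate number; the line test itself takes treatment as a factor and so pairs the lines by treatment.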
